A study of Mus musculus with 12 samples.

Results

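Genes that mark T cells and B cells were followed in whole mouse kidneys, healthy (WT), cystic (RC/RC) and cystic without Caspase-1 (RC/RC:*Casp1*KO). They are *Ptprc*, *Cd3d*, *Cd3e*, *Cd3g*, *Cd4*, *Cd8a*, *Cd79a*, *Cd79b* and *Ms4a1*, which are 9 of the 35275 genes in the count table and were chosen by symbol, for what their proteins do. The WT mice were C57BL/6J. The RC/RC mice carried a knock-in missense allele of *Pkd1* on both chromosomes and form slowly growing kidney cysts, a model of polycystic kidney disease (PKD). The RC/RC:*Casp1*KO mice, the knockout mice, were also homozygous for a germline deletion in *Casp1*, made with TALENs and carried by leukocytes and tubule cells alike, which removes a short stretch at the end of an exon rather than the whole gene, and the knockout line rests on 1 such deletion. Each group held 4 mice at 6 months of age on the C57BL/6J background, females and males in equal number, and the columns of the table do not tell which mice were which, so the sexes were analysed together.

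T cells recognise antigen through a receptor that signals by way of the CD3 chains, which are needed for the receptor to reach the cell surface. B cells use the membrane immunoglobulin in the same manner, with CD79A and CD79B as its signalling partners. In the kidney both are found in the interstitium among a larger population of macrophages and dendritic cells, and interstitial leukocytes are a known feature of cystic kidneys. Whole kidney RNA holds transcripts of every cell type, so that more cells of a type and more RNA per cell cannot be told apart.

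Reads counted on genes ranged from 20556335 to 22656309 in WT, from 18019819 to 24284831 in RC/RC and from 18738755 to 24869454 in knockout mice. Expression is given as CPM, counts per unit depth after TMM scaling of the 12 libraries, or as FPKM, the same value per kilobase of gene length, where genes are compared with each other. Mice of a group were not evenly alike. By the chi-square statistic per degree of freedom between the counts of a pair of mice, B6_2 with B6_3 (17.7) and B6_4 with B6_6 (16.4) were close in WT, against 89.8 to 127 for the other pairs, as were Del3_105 with Del3_60 (15.7) and Del3_42 with Del3_70 (31.8) in the knockout, against 67.1 to 93.4. In RC/RC the closest pair was RC140 with RC143 (37.2), and the others stood at 67.6 to 128. No fit has a term for these pairs, sex was not inferred from the counts, and the part of sex or of the pairs in the results was not tested. Markers of the kidney, the labelled tissue, were abundant. *Slc34a1*, the phosphate transporter of the proximal tubule, stood at 5850 ± 844 CPM in WT (SD, n = 4), and *Umod*, the uromodulin gene of the thick ascending limb, at 3948 ± 911 CPM (SD, n = 4). *Casp1*, which encodes Caspase-1, was lowest in the mice labelled as knockout, with 10 to 23 reads a mouse. Its reads come from the whole gene, most of which lies outside the deletion, so they do not test the deletion itself. The WT mice had 1.29 to 2.05 CPM, the RC/RC mice 2.62 to 4.24 CPM and the knockout mice 0.382 to 1.06 CPM. *Pkd1* differed in none of the 3 comparisons (adjusted p from 0.143 to 0.878 by edgeR's quasi-likelihood F test, with Benjamini-Hochberg adjustment over all genes tested).

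The 9 genes lie on 6 chromosomes. *Cd3g*, *Cd3d* and *Cd3e* form a cluster of 40019 bases on chromosome 9, in which *Cd3g* and *Cd3d* point away from each other with 1362 bases between them, and the 3′ end of *Cd3e*, on the minus strand, lies 11691 bases past the end of *Cd3d*. *Cd4* and *Cd8a* are both on chromosome 6, far apart (positions 124864692 to 124888221 and 71373427 to 71379171). *Ptprc* is on chromosome 1, *Cd79a* on chromosome 7, *Cd79b* on chromosome 11 and *Ms4a1* on chromosome 19. The coordinates are those of the count table, whose build is mm10. None of the 9 overlaps a second gene of the table, except that *Ms4a1* overlaps the antisense gene *4930526L06Rik*, which had 0 reads in every mouse.

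Promoter sequences of 6 of the 9 genes were matched by symbol in RefSeq on GRCm38.p6, the assembly behind mm10, as 7 windows from 250 bases before the start of transcription to 50 bases after it. Windows of 3 genes are shown because these genes of separate lineages moved in the same direction in RC/RC kidneys and their windows hold the same letters, CAGGAAGT or its reverse ACTTCCTG, a binding motif of the ETS family of transcription factors to which the lymphoid and myeloid regulator PU.1 belongs. Capitals mark the match, and all 3 sequences are written 5′ to 3′ on the strand of the gene. They are *Cd3e* at chr9:45009562-45009861 on the minus strand, *Cd79a* at chr7:24897247-24897546 on the plus strand and *Ptprc* at chr1:138175256-138175555 on the minus strand.
Cd3e: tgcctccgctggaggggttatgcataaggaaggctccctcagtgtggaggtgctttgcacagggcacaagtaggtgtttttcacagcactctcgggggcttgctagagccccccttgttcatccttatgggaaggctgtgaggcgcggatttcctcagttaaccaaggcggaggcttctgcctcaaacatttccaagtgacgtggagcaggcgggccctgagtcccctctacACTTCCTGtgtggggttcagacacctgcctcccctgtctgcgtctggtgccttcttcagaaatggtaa
Cd79a: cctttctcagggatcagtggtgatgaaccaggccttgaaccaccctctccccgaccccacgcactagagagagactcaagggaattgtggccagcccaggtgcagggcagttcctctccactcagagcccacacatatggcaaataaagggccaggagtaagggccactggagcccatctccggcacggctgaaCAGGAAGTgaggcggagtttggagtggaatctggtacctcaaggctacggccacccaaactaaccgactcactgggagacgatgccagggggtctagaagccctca
Ptprc: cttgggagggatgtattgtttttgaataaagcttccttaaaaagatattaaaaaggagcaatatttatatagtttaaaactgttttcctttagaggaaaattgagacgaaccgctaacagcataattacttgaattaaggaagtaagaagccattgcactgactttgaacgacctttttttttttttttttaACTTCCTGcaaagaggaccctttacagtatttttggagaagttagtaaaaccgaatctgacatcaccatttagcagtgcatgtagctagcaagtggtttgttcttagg

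The motif was present in 4 of the 7 windows and in 3 of the 6 genes, since both *Ptprc* windows cover the same site, against 3.33% of all 32851 windows in the table. No match was found in the windows of *Cd3d*, *Cd3g* and *Cd8a*. A further 3 motifs were searched on both strands. The RUNX letters TGTGGT were in 0 of the 7 windows (16.8% of all), the octamer ATTTGCAT in 0 (1.74% of all) and TATAAA in a window of *Ptprc* alone (13.6% of all), apart from the ETS letters. The motifs were chosen after the sequences had been seen, so these counts describe the windows and test nothing.

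Per length, *Ptprc* was the most abundant of the 9 genes in every group, and *Ms4a1* the least. In WT kidneys *Ptprc* had 3.03 ± 0.310 FPKM (SD, n = 4), *Ms4a1* 0.102 ± 0.0390 FPKM (SD, n = 4), and the means of the other 7 genes lay between 0.345 FPKM (*Cd4*) and 0.723 FPKM (*Cd79b*), with ranges that overlapped from each to the next. In RC/RC kidneys the order below *Ptprc* was *Cd3g* (2.51 FPKM), *Cd3e* (2.22), *Cd79a* (1.93), *Cd79b* (1.90), *Cd3d* (1.47), *Cd4* (1.33), *Cd8a* (0.635) and *Ms4a1* (0.280), each range again overlapping the next except that the *Ptprc* mice (4.41 to 6.83 FPKM) lay above the highest *Cd3g* mouse (3.98 FPKM) and the highest *Ms4a1* mouse (0.379 FPKM) lay just below the lowest *Cd8a* mouse (0.384 FPKM). Read counts were small. *Ptprc* had 281 to 1282 reads per mouse, and *Ms4a1* as few as 4, so counting error is a large part of the spread of the rarer genes.

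The first comparison asks which of these genes differ between cystic and healthy kidneys. In RC/RC kidneys 8 of the 9 genes were higher than in WT, and *Cd8a* did not pass. *Ptprc*, carried by all leukocytes, rose 1.82-fold, and the other 7 rose between 2.62-fold (*Cd79b*) and 4.31-fold (*Cd3g*). Over all 15243 genes tested, 9.76% were called higher (edgeR, adjusted p under 0.05). For 7 of the 9 genes the lowest RC/RC mouse lay above the highest WT mouse, a pattern found in 12.6% of all genes tested. The median log2 fold change of the 9 was 1.86, and that of all genes tested −0.02.

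Unless a unit is given, changes and differences are on the log2 scale. Values for single mice are given in a fixed order, which is B6_2, B6_3, B6_4 and B6_6 for WT, RC105, RC139, RC140 and RC143 for RC/RC, and Del3_105, Del3_42, Del3_60 and Del3_70 for the knockout.

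*Ptprc* encodes CD45, the receptor tyrosine phosphatase found on all nucleated blood cells, which sets the threshold of antigen receptor signalling. It had 17.0, 13.4, 16.5 and 15.9 CPM in WT mice, 35.4, 31.4, 22.9 and 24.8 CPM in RC/RC mice, and 24.9, 23.8, 16.3 and 59.0 CPM in knockout mice. The RC/RC mice stood clear of the WT mice, while the knockout group ran from the WT level to the highest value of the series, in mouse Del3_70. Against WT, RC/RC had a log2 fold change of 0.87 (SE 0.16, adjusted p = 0.00779, edgeR).

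*Cd3e* encodes CD3 epsilon, the chain that pairs with both CD3 delta and CD3 gamma. Its expression was 1.10, 0.857, 0.603 and 0.707 CPM in WT mice, 2.49, 4.34, 3.97 and 1.93 CPM in RC/RC mice, and 1.62, 1.11, 0.726 and 3.36 CPM in knockout mice. Mice RC139 and RC140 were the high ones among RC/RC, and 3 of the 4 knockout mice lay below the lowest RC/RC mouse. Against WT, RC/RC had a log2 fold change of 1.95 (SE 0.34, adjusted p = 0.00629, edgeR).

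*Cd3d* encodes CD3 delta. It had 0.429, 0.524, 0.251 and 0.707 CPM in WT mice, 1.26, 3.12, 2.26 and 1.16 CPM in RC/RC mice, and 0.620, 1.28, 0.955 and 2.07 CPM in knockout mice. WT and RC/RC did not overlap, and the knockout mice lay across the gap between them. Against WT, RC/RC had a log2 fold change of 2.00 (SE 0.44, adjusted p = 0.0163, edgeR).

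*Cd3g*, for CD3 gamma, had 1.14, 0.381, 0.251 and 0.565 CPM in WT mice, 1.41, 4.08, 3.28 and 1.50 CPM in RC/RC mice, and 0.667, 1.28, 0.802 and 2.67 CPM in knockout mice. The gap between the highest WT mouse and the lowest RC/RC mouse was narrow. The change, 2.11 on the log2 scale (SE 0.53, adjusted p = 0.0295, edgeR), was the largest and least precise of the 9.

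*Cd4* encodes the coreceptor for MHC class II, carried by helper and regulatory T cells and by some dendritic cells. It had 1.86, 0.952, 1.01 and 0.471 CPM in WT mice, 4.89, 6.09, 3.38 and 2.23 CPM in RC/RC mice, and 2.43, 1.66, 1.60 and 4.42 CPM in knockout mice. The RC/RC mice all lay above the WT mice, at a log2 fold change of 1.95 (SE 0.44, adjusted p = 0.0188, edgeR).

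*Cd8a* encodes a chain of the coreceptor for MHC class I, carried by cytotoxic T cells and by some dendritic cells. Its expression was 1.53, 0.905, 1.51 and 0.612 CPM in WT mice, 2.33, 2.70, 1.72 and 1.20 CPM in RC/RC mice, and 2.38, 2.55, 1.57 and 4.65 CPM in knockout mice. WT and RC/RC overlapped, with a log2 difference of 0.80 whose 95% interval ran from −0.04 to 1.64 (adjusted p = 0.190, edgeR). An increase as large as that of *Ptprc* lies within this interval, and these data do not show that *Cd8a* was the same in both groups.

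*Cd79a* and *Cd79b* encode the signalling chains of the B-cell receptor, which are made as a heterodimer. *Cd79a* had 1.10, 0.571, 0.905 and 0.518 CPM in WT mice, 2.41, 3.71, 2.52 and 2.62 CPM in RC/RC mice, and 1.62, 1.72, 0.916 and 2.35 CPM in knockout mice. *Cd79b* had 0.858, 0.714, 1.86 and 0.707 CPM in WT mice, 2.83, 3.28, 2.74 and 2.02 CPM in RC/RC mice, and 1.00, 1.44, 1.30 and 1.89 CPM in knockout mice. The RC/RC mice lay above both other groups for each chain, with mouse B6_4 the high one among WT for *Cd79b*. Against WT the log2 fold change was 1.86 for *Cd79a* (SE 0.31, adjusted p = 0.00539, edgeR) and 1.39 for *Cd79b* (SE 0.36, adjusted p = 0.0338).

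*Ms4a1* encodes CD20, a membrane protein of B cells that plasma cells have lost. It had 0.477, 0.286, 0.302 and 0.188 CPM in WT mice, 1.03, 1.16, 0.430 and 0.815 CPM in RC/RC mice, and 0.524, 0.665, 0.267 and 1.06 CPM in knockout mice. With 4 to 27 reads per mouse it was the rarest of the 9 genes, mouse RC140 lay within the WT range, and its log2 fold change of 1.45 (SE 0.42) sat at the threshold (adjusted p = 0.0499, edgeR).

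**Figure D1:**
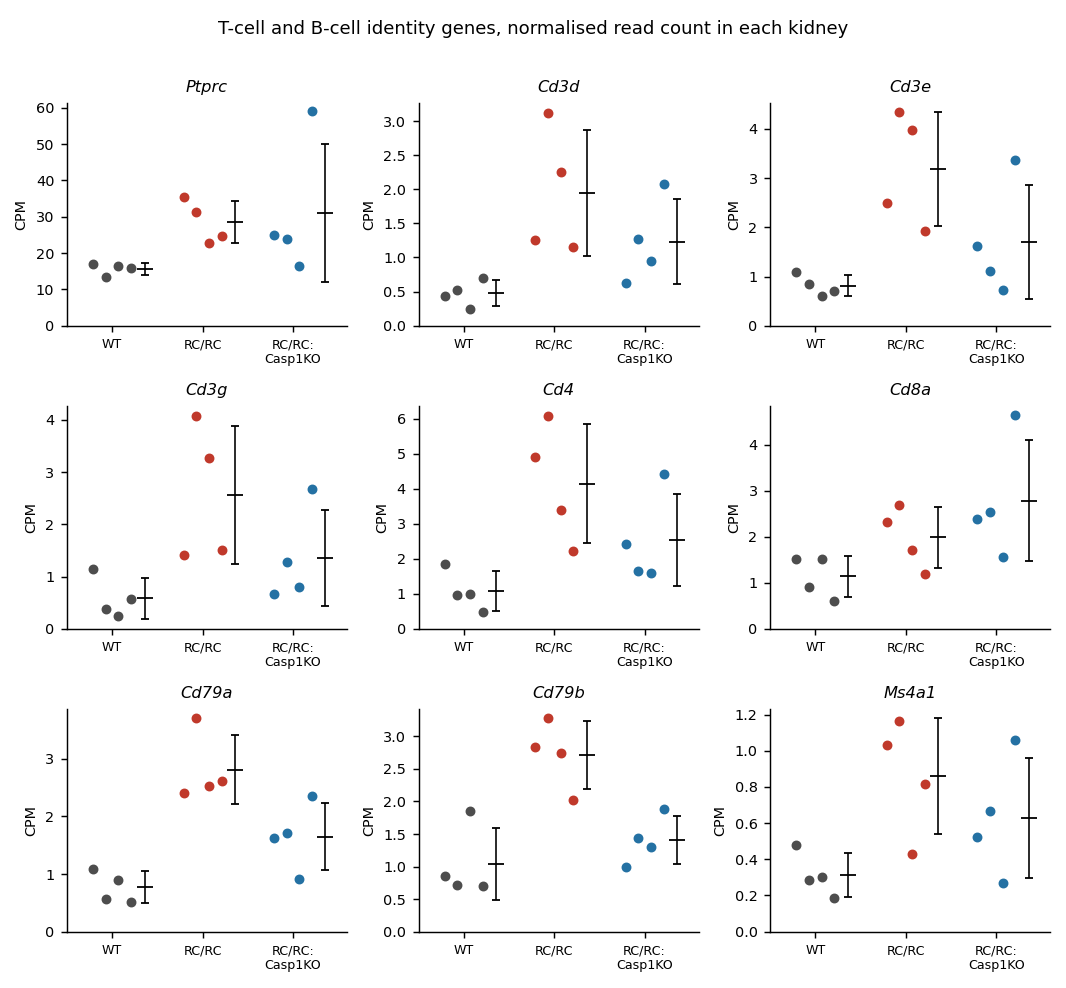
Normalised read count (CPM) of each of the 9 genes in each kidney, 4 mice a group in the order used in the text, with the group mean and SD as the bar to the right of the points. The RC/RC points lie above the WT points for every gene but *Cd8a* and *Ms4a1*, and the knockout mouse Del3_70 is the highest of its group for all 9.

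When mouse RC139, which had the highest values of *Cd3d*, *Cd3e*, *Cd3g*, *Cd4*, *Cd8a*, *Cd79a*, *Cd79b* and *Ms4a1* among RC/RC mice, was left out, 4 of the 9 genes were still called, namely *Ptprc*, *Cd3d*, *Cd3e* and *Cd79a*, and *Cd3g*, *Cd4*, *Cd79b* and *Ms4a1* were lost. The same count of 4, with the same genes lost, was found without mouse B6_3. Reads of *Adipoq*, the adiponectin gene of fat cells, numbered 1886 in mouse RC139, 270 in RC143, 109 in Del3_105, 72 in Del3_42 and 64 in B6_4, and 0 to 3 in the other 7 mice. Without these 5 mice, which left 3 WT and 2 RC/RC mice, the log2 fold changes of the 9 genes were 0.89 to 1.89 and *Cd3e* (1.83, adjusted p = 0.0469) and *Cd79b* (1.84, adjusted p = 0.0331) were called. Summed over the 4 adipocyte markers (*Fabp4* the most abundant, *Adipoq*, *Plin1*, *Cidec*), expression was 54.7, 47.0, 58.0 and 42.9 CPM in WT mice, 70.8, 875, 95.7 and 123 CPM in RC/RC mice, and 85.6, 78.2, 56.5 and 40.6 CPM in knockout mice. *Fabp4*, which blood vessels also express, was the 1 marker kept by the filter on low counts in this comparison. It was not called by edgeR (adjusted p = 0.0619), while DESeq2 called 1 of the 3 markers it tested. The part of fat tissue in the lymphocyte values was not tested beyond leaving these mice out.

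Other genes of the T-cell receptor pathway moved in the same direction. Of 18 tested in a list of 19, 13 rose in RC/RC kidneys and 0 fell, with a median log2 fold change of 1.80. The count was 8 to 17 when each mouse was left out, 8 without any 1 of B6_4, B6_6, RC105, RC139 and RC140 and 17 without RC143, and 5 without the mice with *Adipoq* reads. Of all genes tested, 6.16% to 11.5% were called higher when each mouse was left out, 6.45% without RC139, and 4.3% without the mice with *Adipoq* reads. *Cd27*, a costimulatory receptor of T and B cells, had a difference of −0.17 (SE 0.65). *Trac*, the constant region of the receptor's alpha chain, was at 0.524 to 0.848 CPM in WT mice and 1.63 to 2.59 CPM in RC/RC mice (log2 fold change 1.64, SE 0.28, adjusted p = 0.00598, edgeR). *Trbc2*, a constant region of the beta chain, rose by 2.32 (SE 0.34, adjusted p = 0.00296). *Thy1*, a surface protein of mouse T cells that fibroblasts and nerve cells also make, was the most abundant of the list and rose by 2.72 (SE 0.38, adjusted p = 0.00243), from a mean of 2.75 to 18.2 CPM.

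Of 10 T-cell subset genes tested from a list of 15, 5 rose and 0 fell, against 3 without any 1 of B6_3, RC139 and RC140, and 2 without the mice with *Adipoq* reads. Among them were *Il2ra*, *Il7r* and *Tcf7*. *Tcf7*, a transcription factor of naive and memory T cells, rose by 2.16 on the log2 scale (SE 0.34, adjusted p = 0.00424, edgeR). *Gata3* (16.0 CPM in WT mice) was far above every CD3 chain in WT kidneys and is also a gene of the collecting duct, so its level is not that of T cells alone. It had a log2 difference of 0.43 (SE 0.19, adjusted p = 0.166).

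In the B-cell list, 7 of 14 genes tested rose and 0 fell, with a median of 1.23. The count fell to 3 without RC139, to 4 without B6_3 or without RC105, and to 2 without the mice with *Adipoq* reads. *Ighm*, the heavy chain of IgM, had 4.33 to 28.7 CPM in WT mice and 21.2 to 201 CPM in RC/RC mice, and the groups overlapped (log2 difference 2.82, SE 0.83, adjusted p = 0.0532, edgeR). *Cd72*, a B-cell coreceptor, rose by 1.07 (SE 0.26, adjusted p = 0.0271), and *Blnk*, an adaptor below the B-cell receptor, had a difference of 0.55 (SE 0.19, adjusted p = 0.0886). The log2 differences of 2 genes were negative and did not pass, −0.33 (SE 0.30) for *Cr2*, a complement receptor of B cells and follicular dendritic cells, and −0.39 (SE 0.74) for *Fcmr*, a receptor for IgM.

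Plasma cells are B cells that have turned to secreting antibody and have shut down CD20 and much of the membrane receptor. Of 12 of their genes tested, 10 rose, with a median log2 fold change of 4.83 against 1.86 for the 9 lymphocyte genes. *Igkc*, the kappa light chain, was at 17.1 ± 8.92 CPM in WT mice and 552 ± 255 CPM in RC/RC mice (SD, n = 4 each), higher by 5.01 on the log2 scale (SE 0.49, adjusted p = 0.000441, edgeR). *Igha*, the heavy chain of IgA, rose by 4.87 (SE 0.46, adjusted p = 0.000377) and *Jchain*, which joins IgA and IgM into polymers, by 4.80 (SE 0.42, adjusted p = 0.000278). The immunoglobulin constant regions are similar in sequence, and reads could be split among them.

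Markers of other leukocytes rose beside the lymphocyte genes. All 10 pan-leukocyte genes other than *Ptprc* rose (median log2 fold change 1.58), among them *Cd52* by 1.76 (SE 0.25), *Coro1a* by 1.77 (SE 0.19) and *Lcp1* by 0.80 (SE 0.14). Of 12 macrophage and monocyte markers 11 rose (median 1.71), and the most abundant, *Lyz2*, the lysozyme of myeloid cells, rose by 2.54 (SE 0.23, adjusted p = 0.000358, edgeR). *C1qa* and *C1qb*, complement genes of tissue macrophages, rose by 1.73 (SE 0.19) and 1.72 (SE 0.17). Of 7 dendritic cell markers 5 rose (median 0.94), namely *Itgax*, *Xcr1*, *Zbtb46*, *Siglech* and *Cd209a*, but the count was 1 or 2 without any 1 mouse other than B6_2 and RC143, and 1 without the mice with *Adipoq* reads. Of 5 natural killer and cytotoxic genes tested, *Klrk1* and *Ccl5* rose, *Nkg7*, a granule protein, had a difference of 1.18 (SE 0.40, adjusted p = 0.0837), and *Klrd1*, a receptor of natural killer cells, had a log2 difference of −0.05 (SE 0.36). Of 3 neutrophil markers tested 0 were called by edgeR, with 1 at an unadjusted p under 0.05, and 1 of 5 by DESeq2. The differences were 0.53 (SE 0.54) for *S100a8*, 0.02 (SE 0.59) for *S100a9* and 1.29 (SE 0.43) for *Csf3r*. Among genes that organise lymphoid tissue, 4 of 5 tested rose, which were *Cxcl13*, *Ccl21a*, *Ltb* and *Tnfsf13b*, the last of which encodes the B-cell survival factor BAFF and averaged 1.31 CPM in healthy and 5.90 CPM in RC/RC kidneys (log2 fold change 2.16, SE 0.37, adjusted p = 0.00558). *Ccl19*, a chemokine of T-cell zones, had a difference of 1.42 (SE 0.44, adjusted p = 0.0653). Without the mice with *Adipoq* reads, 0 of the natural killer and 2 of the lymphoid organiser genes were called, against 8 of 10 pan-leukocyte genes, 10 of 12 macrophage markers and 8 of 12 plasma cell genes.

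Red blood cell markers went the other way. All 5 fell in RC/RC kidneys (median −1.78, 3 called without the mice with *Adipoq* reads), where 3.18% of all genes tested were called lower, and their summed expression, with *Hbb-bs*, *Hba-a1* and *Hba-a2* the most abundant per length (log2 fold changes −1.69, −1.51 and −1.78, the last 2 near copies of each other), was 900.3, 822, 648 and 477 CPM in WT mice, 125, 269, 261 and 259 CPM in RC/RC mice, and 258, 394, 348 and 217 CPM in knockout mice. The part of blood left in the tissue in the lymphocyte values was not tested. Kidney segment markers summed to 13508 CPM in WT mice, 8468 CPM in RC/RC mice and 12642 CPM in knockout mice on average. Of the 7, *Slc12a3*, the salt transporter of the distal convoluted tubule, fell (log2 fold change −2.03, SE 0.33, adjusted p = 0.00444, edgeR), *Slc34a1* and *Umod* had differences of −0.71 and −0.48 that did not pass, and *Aqp2*, the water channel of the collecting duct, one of 1.05 (adjusted p = 0.0739). The part of a lower tubule share in the lymphocyte values was not tested.

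**Figure D2:**
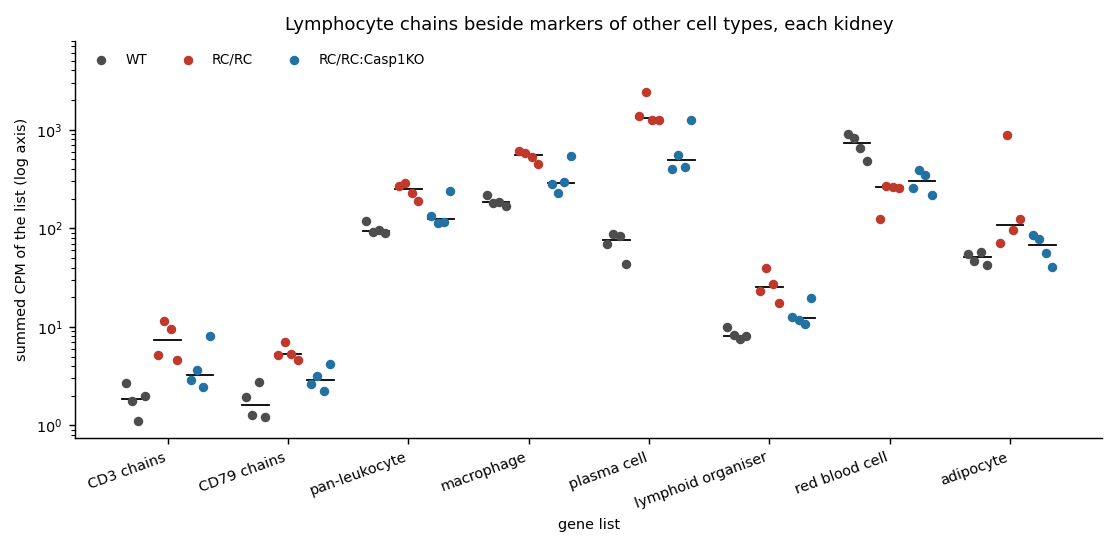
Summed expression (CPM, log axis) of the CD3 chains (*Cd3d*, *Cd3e*, *Cd3g*), the CD79 chains (*Cd79a*, *Cd79b*) and marker lists of other cells, each point a mouse and each line the group median. Leukocyte lists are higher and red blood cell markers lower in RC/RC than in WT mice, the plasma cell list spans the widest range, and mouse RC139 stands apart at 875 CPM for adipocyte markers.

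The second comparison asks what knockout of *Casp1* changes in RC/RC kidneys. Of the 9 genes, *Cd79b* fell, by 0.95 on the log2 scale (SE 0.26, adjusted p = 0.0456, edgeR), from 2.72 ± 0.524 CPM in RC/RC to 1.41 ± 0.369 CPM in knockout mice (SD, n = 4 each), and its groups did not overlap. The share of all 15428 genes called lower was 4.41%, so 1 of 9 is close to that background. *Cd79a* did not overlap either, a pattern seen in 8.67% of all genes tested, with a log2 difference of −0.78 (SE 0.30, adjusted p = 0.116). The call of *Cd79b* was lost when any of 6 of the 8 mice was left out and held without RC143 or Del3_70.

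None of the T-cell genes passed. *Cd3e*, *Cd3g*, *Cd3d* and *Cd4* had log2 differences of −0.91 (SE 0.47), −0.93 (SE 0.51), −0.67 (SE 0.44) and −0.72 (SE 0.40), with adjusted p from 0.213 to 0.330. Their 95% intervals ran from −2.07 to 0.32, and a decrease of more than 2-fold and no change at all both lie inside. *Ms4a1* had a difference of −0.48 (SE 0.45). *Cd8a* and *Ptprc* pointed the other way, at 0.48 (SE 0.37) and 0.10 (SE 0.35). The difference for *Ptprc* rested on mouse Del3_70, without which it was −0.40 (adjusted p = 0.222). Without that mouse *Cd3e* stood at −1.47 (adjusted p = 0.0558) and *Cd3g* at −1.49 (adjusted p = 0.0835), both still short of the threshold.

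Mouse Del3_70 had the highest summed expression of its group in most leukocyte lists. Summed over the 9 genes, expression was 35.8, 35.5, 24.5 and 81.5 CPM in the knockout mice, against 54.1, 59.9, 43.2 and 38.3 CPM in RC/RC mice and 25.5, 18.6, 23.2 and 20.4 CPM in WT. Most of this sum was *Ptprc*, which is not particular to lymphocytes. In Del3_70 *Ptprc* had 59.0 CPM, while the CD3 chains summed to 8.10 CPM and the CD79 chains to 4.23 CPM. The macrophage list gave 285, 230, 294 and 544 CPM in the knockout mice, and the plasma cell list 398, 560, 422 and 1243 CPM. It was closer to its group in the B-cell list, at 83.9, 66.0, 62.0 and 95.9 CPM. In the T-cell subset list, at 70.7, 58.1, 98.9 and 82.8 CPM, Del3_60 was higher. The *Casp1* value of Del3_70, 1.06 CPM, was the highest of the knockout group and below every WT and RC/RC mouse.

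Around the 9 genes, lymphocyte lists had negative medians in the knockout against RC/RC and few calls by edgeR. The median log2 difference was −0.72 for the T-cell receptor list, −0.74 for the subset list, −0.21 for the B-cell list and −1.19 for the plasma cell list. Without RC139 these medians were −0.42, −0.51, −0.02 and −0.80, without Del3_70 they were −1.13, −1.20, −0.49 and −1.54, and without the mice with *Adipoq* reads −0.40, −0.48, −0.13 and −0.45. In the T-cell receptor list *Thy1* fell by 1.49 (SE 0.41, adjusted p = 0.0451, edgeR) and the other 17 did not pass. Of all 18, *Thy1* included, 5 were lower and 1 higher at an unadjusted p under 0.05. The 1 higher was *Cd27*, at 0.818 CPM in RC/RC and 2.35 CPM in knockout mice without overlap (log2 difference 1.52, SE 0.43, adjusted p = 0.05002). DESeq2 called 1 gene of the list higher and 1 lower. None of 11 T-cell subset genes (5 at an unadjusted p under 0.05, all lower, and 1 called by DESeq2) and none of 15 B-cell genes (2 at an unadjusted p under 0.05, both lower, and 1 by DESeq2) passed. *Ighm* had the widest difference of its list, −1.94 (SE 0.63, adjusted p = 0.0730). Of 12 plasma cell genes *Sdc1*, the syndecan of plasma cells and of many epithelial cells, fell (−0.76, SE 0.18, adjusted p = 0.0294), while *Igkc* (−1.46, SE 0.41, adjusted p = 0.0502) and *Jchain* (−1.20, SE 0.35, adjusted p = 0.0536) lay just past the threshold. At an unadjusted p under 0.05, 8 of the 12 were lower, and DESeq2 called 7 of 13 plasma cell genes lower. The chemokine *Ccl21a*, which draws T cells and dendritic cells, fell by 0.83 (SE 0.19, adjusted p = 0.0272), from 10.3 to 5.85 CPM. *Cd52* among pan-leukocyte genes and *C1qa*, *C1qb* and *Cd14* among macrophage markers also fell, and DESeq2 called 4 pan-leukocyte, 5 macrophage and 3 lymphoid organiser genes lower, where it called 8.12% of all genes lower. These counts turned on single mice. Without Del3_70, where 4.42% of all genes tested were called lower, edgeR called lower 10 of 10 pan-leukocyte genes, 9 of 12 macrophage markers, 4 of 5 lymphoid organiser genes, 5 of 12 plasma cell genes, 3 of 18 T-cell receptor genes, 2 of 11 subset genes, and 1 each of 15 B-cell, 5 natural killer and 7 dendritic cell genes. Without RC105 it called 4 plasma cell genes lower (8.3% of all genes). Without RC139, RC140, Del3_105 or Del3_60 it called 0 lower in every leukocyte list, in fits that called 0.864%, 0.411%, 0.369% and 0.505% of all genes lower. The fit without RC139 called 1 of 18 T-cell receptor genes higher, and 3.93% of all genes. The kidney segment markers *Lrp2* and *Slc12a3* rose, by 1.52 (SE 0.28) and 1.44 (SE 0.39), where 7.23% of all genes tested were called higher, and 1 kidney marker was called higher without any 1 mouse other than Del3_42 and RC105. None passed among 4 natural killer genes (0 at an unadjusted p under 0.05 and 0 by DESeq2), 7 dendritic cell markers (1 and 1), 2 neutrophil markers (0 and 0), 4 adipocyte markers (1 and 0) and 5 red blood cell markers (1 and 1).

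The third comparison sets the knockout mice beside WT, and it shares its mice with the other 2 comparisons. Of the 9 genes, 8 passed the filter on low counts, and 0 were called by edgeR. All 8 log2 differences were positive, from 0.45 (*Cd79b*, SE 0.38) to 1.35 (*Cd3d*, SE 0.45), and 5 (*Ptprc*, *Cd3d*, *Cd4*, *Cd8a*, *Cd79a*) had an unadjusted p under 0.05. DESeq2 called *Cd8a*. Over all 15346 genes tested 1.13% were called higher by edgeR at the adjusted threshold. The share of all genes at an unadjusted p under 0.05 is not given, so the count of 5 has no background beside it. *Ms4a1*, removed by the filter, averaged 0.629 CPM in the knockout and 0.313 CPM in WT mice (exact permutation test, two-sided, p = 0.114).

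*Cd8a* was the 1 gene of the 9 whose knockout and WT mice did not overlap (7.4% of all genes tested), at 1.57 to 4.65 CPM against 0.612 to 1.53 CPM. Its log2 difference was 1.29 (SE 0.41, adjusted p = 0.135, edgeR), and without mouse Del3_70 it was 0.92 (adjusted p = 0.303). Side by side, the mean of *Cd8a* was 1.14 CPM in WT mice, 1.99 CPM in RC/RC mice and 2.79 CPM in the knockout, and that of *Cd4* 1.07, 4.15 and 2.53 CPM. Whether these genes differ in their response was not tested.

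Of 11 plasma cell genes tested, 7 were called higher in the knockout than in WT, with *Igkc* at 203 ± 122 CPM (SD, n = 4; log2 fold change 3.57, SE 0.52, adjusted p = 0.0137, edgeR). The count was 4 to 7 when each mouse was left out, 4 without B6_2, and 1 of 12 without the mice with *Adipoq* reads. In the T-cell receptor list *Skap1*, an adaptor of T-cell adhesion, was called higher (1.22, SE 0.25, adjusted p = 0.0468), and in the B-cell list 1 of 14 genes tested was called higher. At an unadjusted p under 0.05, 10 of 16 T-cell receptor genes and 7 of 14 B-cell genes were higher, and DESeq2 called 6 of 19 and 4 of 20, where it called 4.44% of all genes higher. The share of all genes at that unadjusted level is not given, here or for the other lists. The T-cell call was lost when any 1 mouse was left out, and 0 B-cell genes were called without any 1 mouse other than B6_4. None of 10 T-cell subset genes, 10 pan-leukocyte genes and 12 macrophage markers were called by edgeR, with 5, 5 and 7 at an unadjusted p under 0.05, and 3, 4 and 4 called by DESeq2. None passed among 4 natural killer genes (0 unadjusted, 0 by DESeq2), 4 lymphoid organiser genes (1 and 1), 7 dendritic cell markers (3 and 2), 2 neutrophil markers (0 and 0), *Fabp4* of the adipocyte markers and 7 kidney segment markers (1 and 0). Red blood cell markers were lower than in WT, with 4 of 5 called against 0.893% of all genes tested, and 1 to 4 called when each mouse was left out.

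**Figure D3:**
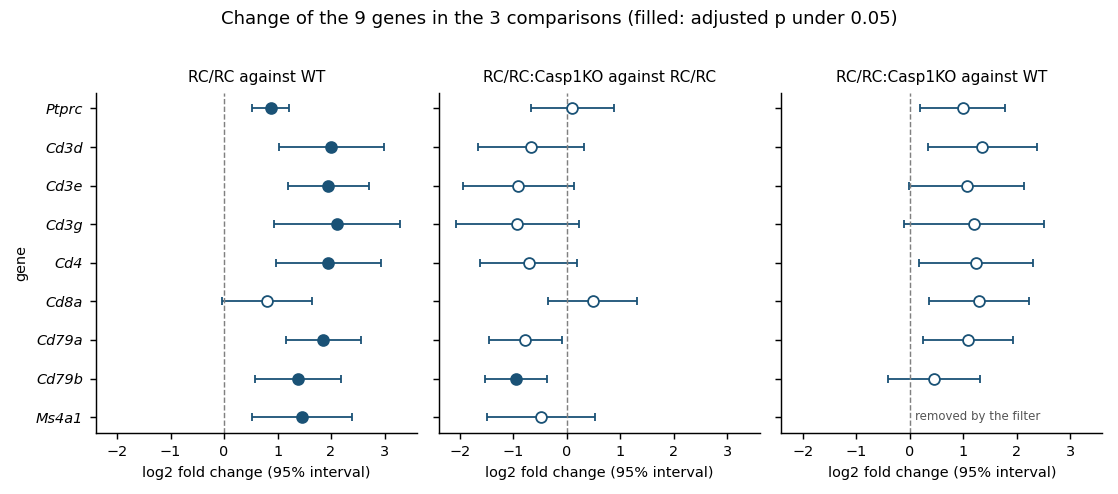
Log2 fold change of each of the 9 genes in the 3 comparisons with its 95% interval, filled where the adjusted p is under 0.05. In RC/RC against WT 8 of 9 are filled, in RC/RC:*Casp1*KO against RC/RC *Cd79b* alone, and in RC/RC:*Casp1*KO against WT none, with *Ms4a1* removed by the filter.

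Ratios of reads within a kidney do not depend on the scaling between libraries. They were chosen after the counts had been seen and are given as a description without a test. There were 1.22, 1.05, 0.667 and 0.769 *Cd4* reads for each *Cd8a* read in WT, 2.10, 2.25, 1.97 and 1.86 in RC/RC, and 1.02, 0.652, 1.02 and 0.950 in knockout mice. The 4 RC/RC mice lay apart from both other groups, and WT and knockout mice overlapped. Mouse Del3_70, high for *Cd4* and for *Cd8a*, had a ratio inside the range of its group. The counts behind each ratio were 10 to 128 reads of *Cd4* and 13 to 101 reads of *Cd8a*.

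The CD3 chains had 15.7, 13.2, 6.71 and 12.5 reads per 100 *Ptprc* reads in WT, 14.6, 36.8, 41.5 and 18.5 in RC/RC, and 11.7, 15.4, 15.2 and 13.7 in knockout mice. Mice RC139 and RC140 had the high ratios, and RC105 lay within the WT range. The CD79 chains had 11.5, 9.61, 16.8 and 7.72 reads per 100 *Ptprc* reads in WT, 14.8, 22.3, 23.0 and 18.7 in RC/RC, and 10.5, 13.3, 13.6 and 7.18 in knockout mice, so that RC/RC and knockout mice did not overlap. The proportion of T-cell to B-cell chains overlapped in all 3 groups. It averaged 1.19 ± 0.538 CD3 reads per CD79 read in WT, 1.36 ± 0.432 in cystic and 1.33 ± 0.392 in knockout kidneys (SD, n = 4 each).

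The increase of *Ptprc* in RC/RC kidneys, 0.87 on the log2 scale, lay near the lower end of the 10 pan-leukocyte genes, which ran from 0.80 to 1.93. Against *Coro1a*, an actin-binding protein of leukocytes, there were 109 to 143 *Ptprc* reads per 100 in WT, 52.1 to 84.6 in RC/RC and 98.4 to 164 in knockout mice, and the RC/RC mice again lay below both other groups. Relative to *Coro1a* the CD3 chains did not separate the groups, with 9.48 to 17.9, 12.1 to 21.7 and 13.7 to 22.5 reads per 100 in the same order.

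**Figure D4:**
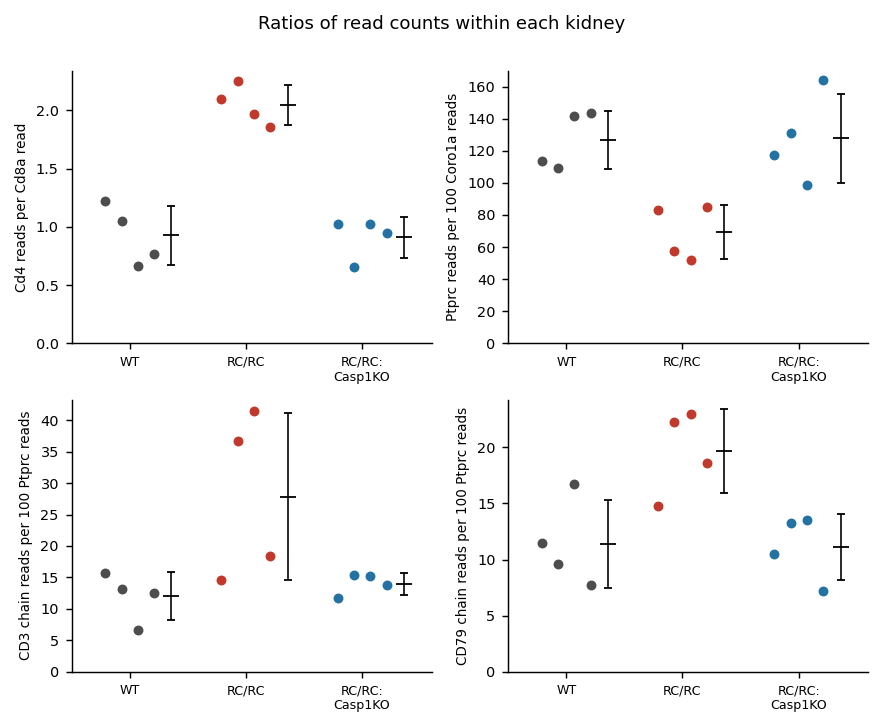
Reads of *Cd4* per read of *Cd8a*, of *Ptprc* per 100 of *Coro1a*, and of the CD3 and CD79 chains per 100 of *Ptprc*, in each kidney, with the group mean and SD to the right of the points. The RC/RC mice lie above both other groups for *Cd4* per *Cd8a* (1.86 to 2.25) and below them for *Ptprc* per 100 *Coro1a* (52.1 to 84.6).

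The 9 genes varied together from mouse to mouse. Over the 36 pairs of them and the 12 mice, Pearson's r between log2 CPM ran from 0.53 to 0.94 with a median of 0.78, and from 0.26 to 0.91 with a median of 0.66 after the group means were removed. The pairs share their libraries, so r is given as a description. Over the 12 mice the closest pair was *Cd3d* and *Cd3g*, the neighbours on chromosome 9 (0.94), and the loosest *Cd8a* and *Cd79b* (0.53). With the group means removed the order changed, and the closest pair was *Cd4* and *Cd8a* (0.91) and the loosest *Cd3d* and *Cd79b* (0.26).

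Among 15866 other genes, the 10 whose log2 CPM followed the mean of the 9 genes most closely over the 12 mice were *Mex3a* (r = 0.986), *Rac2* (0.983), *Dock2* (0.977), *Nfasc* (0.974), *Ncf4* (0.973), *Pld4* (0.969), *Nrros* (0.968), *Ms4a4c* (0.968), *Ccl5* (0.966) and *Akna* (0.965). *Rac2*, *Dock2* and *Ncf4* are leukocyte genes of cell migration and of the NADPH oxidase, and *Ccl5* is a chemokine of T cells and natural killer cells. *Nfasc*, a cell adhesion gene of the nervous system, was on average at 0.227 CPM in WT mice, 4.08 CPM in cystic and 2.20 CPM in knockout mice.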

How the data were processed

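Poly(A) RNA of 12 mouse kidneys was sequenced. The authors deposited raw read counts per gene for each mouse, without normalization, beside gene lengths in bases and their own DESeq2 fold changes and p-values, which were not used. The labels name CASAVA 1.8, STAR and mm10. The counter, annotation and strand setting are not given in the sources used here. Columns name the group of a mouse and neither its sex nor its replicate number, and columns of unknown group numbered 0. Counts differed beyond sampling noise in all 18 pairs of mice within groups (chi-square per degree of freedom 15.7 to 128, genes with 20 or more reads in the pair), so each mouse was a replicate.

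The 3 comparisons were each fitted on their own 8 mice, over the whole table, with edgeR 4.0.16 in R 4.3.3 (quasi-likelihood test, TMM factors, filterByExpr, Benjamini-Hochberg adjusted p under 0.05). The SE was derived from the fold change and its F statistic. CPM used TMM factors of all 12 libraries, and 3 reads correspond to 0.121 to 0.166 CPM before that scaling, which covers counting error only. A gene removed by the filter was compared by an exact permutation test of mean CPM. Correlations used log2(CPM + 0.5). The script was tested on simulated data.

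The genes, lists and tests were chosen with earlier results of these data known. For each further list the 3 genes with the highest mean FPKM are named, and any gene passing in the direction opposite to most of its list. Genes named to identify a count of 5 or fewer, or for a difference opposite to their list that did not pass, were chosen after their values were seen. Of 21 B-cell symbols 20 matched. Some genes of the lists are counted but not reported here by name. Alternatives were DESeq2 1.42.0, RLE factors, library size alone, all genes with a count, a mean of 10 counts, 1 fit of all 12 mice, leaving out each mouse, and, chosen after seeing the data, leaving out mice with 50 or more *Adipoq* reads.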

Additional observations from a re-analysis of the deposited data

Results flagged for a closer look

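Each of the 9 genes was examined in each of the 3 groups for a mouse far from the other 3, in 27 groups of values, and 2 stood out. Chance flags about 1 in 20 such groups. *Cd79a* in RC/RC was highest in mouse RC139, at 3.71 CPM against 2.41 to 2.62 CPM in the other 3 mice. *Cd79b* in WT was highest in mouse B6_4, at 1.86 CPM against 0.707 to 0.858 CPM in the other 3 mice. Both mice are among the 5 with 50 or more *Adipoq* reads.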

How the results depend on the processing

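In RC/RC against WT the log2 fold changes of the 9 genes stayed positive under all 7 alternatives and all 8 fits without a single mouse. *Cd3e* passed in all 15 of these fits and *Cd8a* in none. The number of genes called was 6 of 9 in 1 fit of all 12 mice, 7 or 8 with DESeq2, other scaling or other filters, 2 without the mice with *Adipoq* reads, and 4 to 7 when each mouse was left out. Most of the losses were *Ms4a1*, *Cd79b* and *Cd3g*. Over the whole table the number of calls was 1971, and 3018 with DESeq2, 790 without the mice with *Adipoq* reads, and 1162 to 2440 when each mouse was left out. In RC/RC:*Casp1*KO against RC/RC the single call, *Cd79b*, was lost (0 called) with library size alone, with all genes with a count, in 1 fit of all 12 mice and without the mice with *Adipoq* reads, and the count was 0 to 1 when each mouse was left out. *Ptprc* changed direction without Del3_70 (−0.40), and its log2 difference ran from −0.40 to 0.31 when each mouse was left out. Over the whole table the number of calls was 1797, and 3182 with DESeq2, 993 with library size alone, 0 without the mice with *Adipoq* reads, where 2 mice a group remained, and 438 to 2789 when each mouse was left out. In RC/RC:*Casp1*KO against WT 0 of the 9 genes passed, 1 with DESeq2 (*Cd8a*, adjusted p = 0.0428) and 0 to 0 when each mouse was left out. Over the whole table the number of calls was 311, and 1390 with DESeq2, 30 without the mice with *Adipoq* reads, and 108 to 547 when each mouse was left out. The causes were not tested, beyond the smaller number of mice. No paired analysis was possible because the columns carry no replicate number. Depth limits the rarer genes, with 4 to 27 reads of *Ms4a1* per mouse.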
